A study of Arabidopsis thaliana with 12 samples.

Results

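Plants carry their own genetic systems in plastids and mitochondria, and nuclear genes supply most of the proteins that run them. Pentatricopeptide repeat (PPR) proteins bind organelle RNAs and act in their stability, splicing, editing or translation, mTERF proteins are organelle nucleic acid-binding proteins of a family first described in mitochondrial transcription termination, ribosomal proteins of the L18p/L5e type sit in the large subunit, and trigger factor is in bacteria a ribosome-associated chaperone that meets new polypeptides at the exit tunnel. Transcripts of 4 such nuclear genes were followed: AT5G39980 (pentatricopeptide repeat), AT3G18870 (mTERF family), AT1G08845 (ribosomal L18p/L5e family) and AT5G55220 (trigger factor-type chaperone). They were taken as the probes that the platform annotation assigns to exactly 1 of these loci, which gave 1 probe per gene, 4 of 692 probes with a single gene name (691 genes in all). The genes had been picked with their difference between the genotypes known, so that difference is given as a description, without a test.

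The arrays compared an Arabidopsis thaliana aap6 mutant with wild type (WT), both of the ecotype Wassilevskija. The mutated gene encodes the amino acid permease AAP6, which the sources used here place in xylem parenchyma. There were 12 arrays of total RNA, 6 labelled aap6 and 6 labelled WT, numbered 1 to 6 in each genotype. The sources used here do not give the tissue, age, growth conditions, kind of allele or array platform. No probe carried the name of AAP6 alone, and the mutated transcript itself therefore offered no check of the genotypes.

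The deposited values were linear intensities between 0 and an upper bound of 100 over 3439 probes. Array medians were 0.234 to 0.265 in aap6 and 0.142 to 0.164 in WT. The dim end differed too, with 425 to 553 probes per array at or below an intensity of 0.0505 in aap6 and 744 to 961 in WT. A difference of scale between the arrays and a difference of RNA between the genotypes cannot be told apart here, so each gene is given as deposited, by its place within its array, and after normalization. Correlations over probes of the deposited values were 0.993 to 0.998 within arrays 1 and 2, 3 and 4, or 5 and 6 of a genotype, against 0.955 to 0.980 between its other arrays. Each such pair was averaged, giving n = 3 samples per genotype. Whether these came from separate plants is not stated, so SDs, SEs and p-values reflect sample-to-sample spread that could be purely technical. The number of arrays limits the precision. In such bulk RNA, fewer cells of a type and less RNA per cell cannot be told apart.

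AT5G39980, the PPR gene, stood farthest from WT of the 4. Its deposited intensity was 0.874 at the lowest, 1.16 at the median and 1.23 at the highest in the 6 aap6 arrays, and 0.150, 0.214 and 0.237 in the 6 WT arrays. Every aap6 array was above every WT array, with a wide gap between them. Within its own array the probe outshone 85.1% to 88.5% of all probes in aap6, against 51.7% to 62.5% in WT, so the gap was also one of rank and did not need a common scale.

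For comparison between arrays, the values were quantile normalized, raised to a floor of 0.0505 (the 10th percentile of values above 0) and put on a log2 scale. The log2 level of AT5G39980 was then 0.058 ± 0.12 in aap6 and -1.93 ± 0.17 in WT (SD, n = 3 each). The difference was 1.99 ± 0.17 on the log2 scale (SE from the limma fit), or 3.98-fold higher in aap6. It was much the same in each set of array numbers, at 2.03 between arrays 1 and 2 of the genotypes, 2.06 between arrays 3 and 4 and 1.88 between arrays 5 and 6. The SD within genotypes was 0.15, and 13.3% of tested probes had a smaller one. A small SD helps a probe to pass in the contrast by which the gene was chosen, so no steadiness is read from it. Among 3287 probes tested it ranked 28th from the top by its rise.

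**Figure D1:**
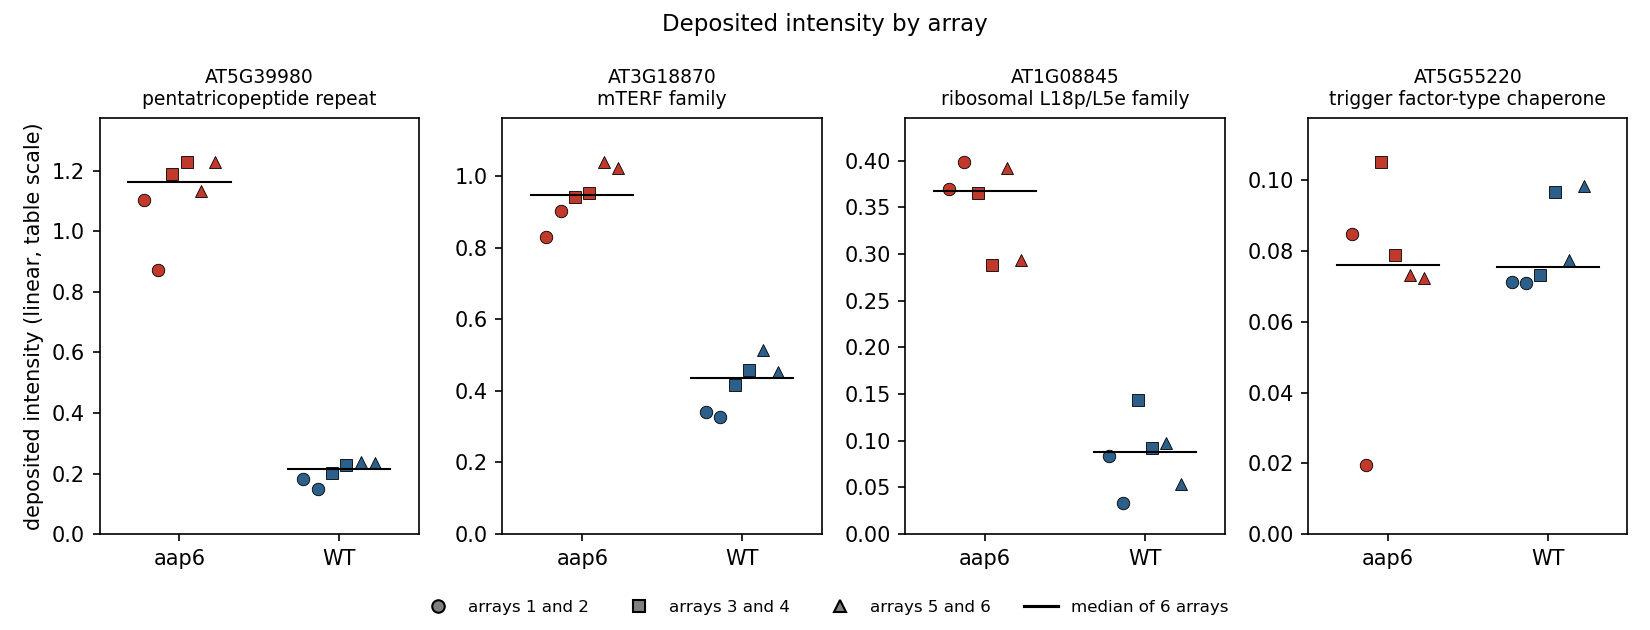
Deposited intensity (linear, table scale, axes from 0) of the 4 genes in the 6 aap6 arrays and the 6 WT arrays. Each point is 1 array, its shape gives the array pair and the line is the median of 6 arrays. The aap6 points of AT5G39980, AT3G18870 and AT1G08845 all lie above the WT points, while those of AT5G55220 overlap, with medians of 0.0760 and 0.0754.

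AT3G18870, of the mTERF family, was also brighter in aap6 but by less. Its deposited intensity ran from 0.830 over a median of 0.947 to 1.04 in aap6, and from 0.327 over 0.435 to 0.515 in WT. The arrays of the genotypes did not overlap. The probe outshone 84.6% to 86.7% of probes in aap6 arrays and 71.8% to 80.0% in WT arrays. Its log2 level after normalization was -0.20 ± 0.10 in aap6 and -1.03 ± 0.20 in WT (SD, n = 3 each), a difference of 0.83 ± 0.17 (SE), or 1.77-fold higher in aap6. The difference was 0.95 for arrays 1 and 2, 0.76 for arrays 3 and 4 and 0.76 for arrays 5 and 6. Both arrays of a pair gave nearly the same level, with a mean gap of 0.077 on the log2 scale, and 6.24% of tested probes had a smaller gap.

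AT1G08845 carries the ribosomal L18p/L5e fold, which in bacteria belongs to the protein that holds a small ribosomal RNA in the large subunit. Its deposited intensity was lowest at 0.288, 0.368 at the median and highest at 0.399 in aap6, and 0.0338, 0.0881 and 0.144 in WT. The genotypes again did not overlap, although the WT arrays spread over a wide relative range. Its probe outshone 53.0% to 67.2% of probes in aap6 arrays and 22.7% to 47.9% in WT arrays.

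After normalization the log2 level of AT1G08845 was -1.81 ± 0.21 in aap6 and -3.15 ± 0.40 in WT (SD, n = 3 each). The difference was 1.34 ± 0.24 (SE), or 2.53-fold higher in aap6. It was less even than that of the PPR and mTERF genes, at 1.79 for arrays 1 and 2, 0.73 for arrays 3 and 4 and 1.498 for arrays 5 and 6. WT arrays 3 and 4 had the highest averaged WT level, and WT array 3 held the highest WT intensity, 0.144. In aap6, arrays 3 and 4 had the lowest averaged level, and array 4 held the lowest intensity, 0.288. Arrays of a pair differed by 0.55 on average on the log2 scale, and 81.4% of tested probes had a smaller gap.

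A second probe lists AT1G08845 together with 2 other loci, so its signal belongs to no single gene and it was not counted among the 4. It was bright, at 2.86 to 3.70 in aap6 and 2.24 to 3.69 in WT as deposited, and the genotypes overlapped. It did not pass, with a log2 change of 0.22 ± 0.22 (SE) and a limma adjusted p of 0.577. How far related sequences contribute to the signal of either probe was not tested.

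**Figure D2:**
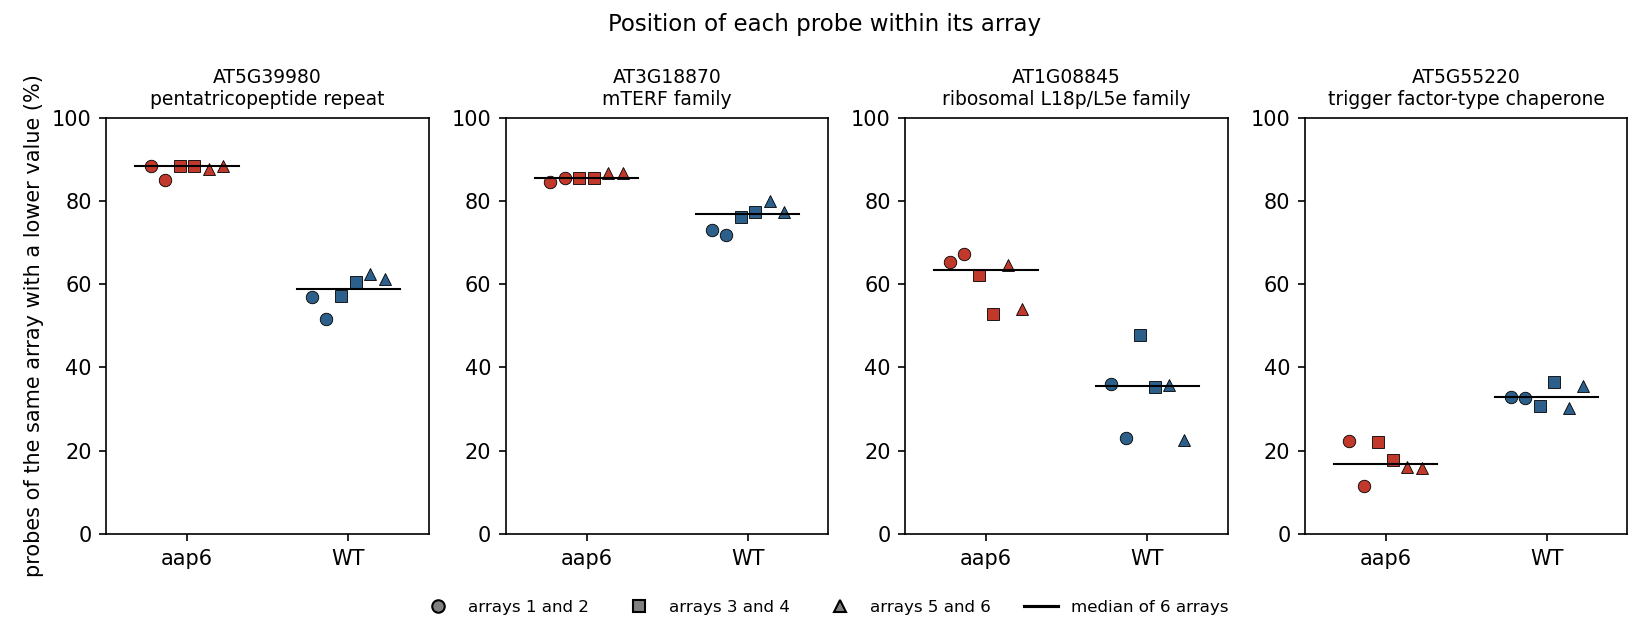
Share of probes of the same array (%) with a lower deposited intensity than the gene's probe, in the 6 aap6 arrays and the 6 WT arrays. Each point is 1 array, its shape gives the array pair and the line is the median of 6 arrays. AT5G55220 lies at 11.7% to 22.2% in aap6 and 30.3% to 36.5% in WT, and the other genes lie higher in aap6 than in WT.

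AT5G55220, the trigger factor-type chaperone, was the exception of the 4 in direction, and its size and, with 1 array left out, its sign changed with the scaling. As deposited it was dim in both genotypes, with a lowest, median and highest intensity of 0.0195, 0.0760 and 0.105 in aap6 and of 0.0708, 0.0754 and 0.0984 in WT. The ranges overlapped, the medians nearly coincided, and aap6 array 2 alone lay below every WT array. Its place within the array did separate the genotypes, since the probe outshone 11.7% to 22.2% of probes in aap6 arrays and 30.3% to 36.5% in WT arrays. The same intensity thus stood lower in the aap6 arrays, whose dim probes were brighter as a whole.

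Quantile normalization gives every array the same set of values and so carries this difference of place into a difference of level. The normalized intensity of AT5G55220 was 0.0182 to 0.0689 in aap6 and 0.104 to 0.132 in WT, with no overlap. In 4 of the 6 aap6 arrays it lay at or under the floor, and in none of the WT arrays. The log2 level was -4.16 ± 0.13 in aap6 and -3.10 ± 0.020 in WT (SD, n = 3 each), a difference of -1.06 ± 0.15 (SE). With most aap6 arrays at or under the floor, this size was set in part by the floor. The floor also gave aap6 arrays 2, 4, 5 and 6 the same level, although their normalized intensities ran from 0.0182 to 0.0482. The aap6 SD and the SE therefore leave out spread and overstate the precision. A higher floor (25th percentile, all values) gave -0.61, and a lower one (2nd percentile, values above 0) gave -1.43. Without normalization the difference was -0.089, and 0.036 when aap6 array 2 was also left out.

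The 4 genes can be set beside the shift of all probes under each scaling. Over all probes the median log2 change came to -0.057 after quantile normalization and 0.43 without normalization, with the floor kept. It was 0.10 with each array centred on the median of its values above the floor, and -0.13 with each array centred on the median of all its values. AT5G39980 changed by 1.99, 2.47, 2.06 and 1.74 under these scalings in the same order. AT3G18870 changed by 0.83, 1.19, 0.79 and 0.47, and AT1G08845 by 1.34, 2.10, 1.73 and 1.45. These 3 genes were thus above the median of all probes throughout. AT5G55220 changed by -1.06, -0.089, -0.47 and -0.77, below the median of all probes in each case. It was close to 0 without normalization, where the floor still raised aap6 array 2. For AT1G08845 the floor there raised WT array 2, deposited at 0.0338.

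**Figure D3:**
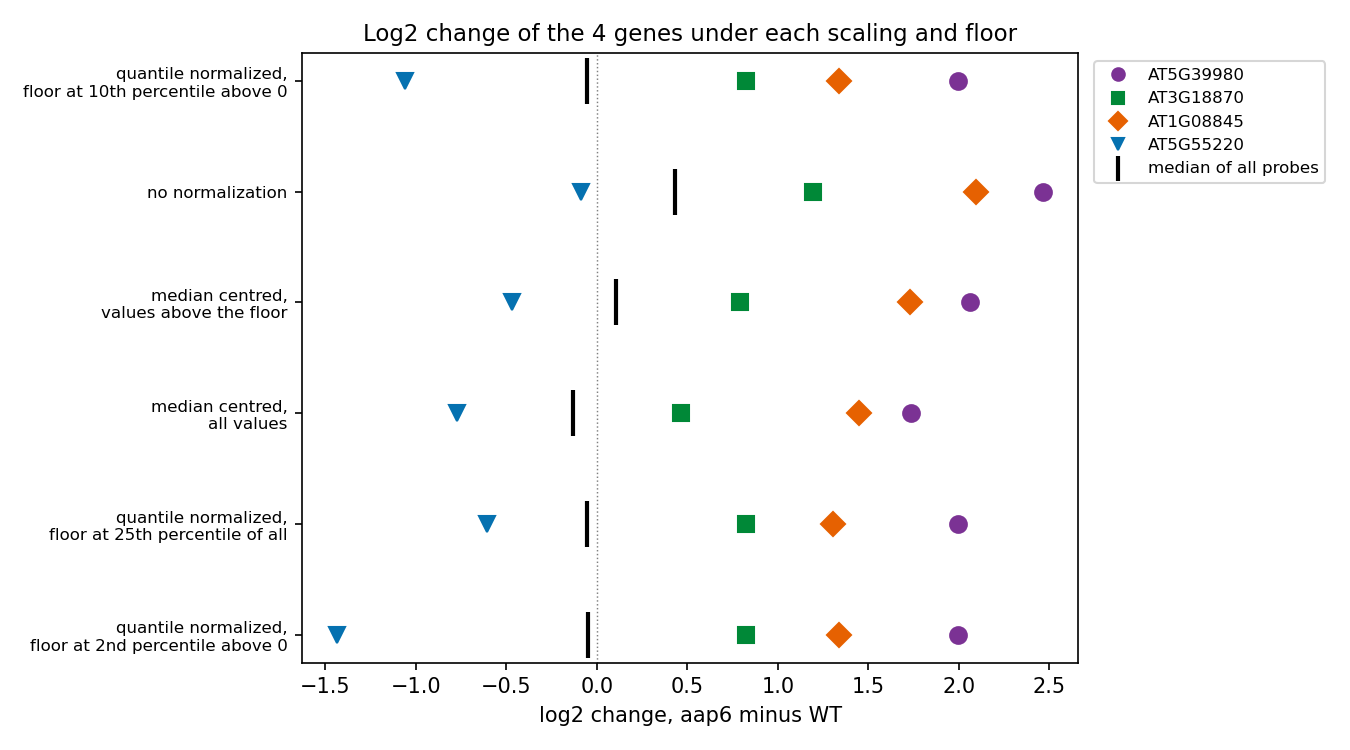
Log2 change, aap6 minus WT, of the 4 genes under 6 combinations of scaling and floor, with the median change of all probes as a black bar. AT5G39980 stays between 1.74 and 2.47, and AT5G55220 moves between -1.43 and -0.089.

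In the fit across all probes, 202 of 3287 passed a limma adjusted p of 0.05, which is 6.15% (134 higher in aap6, 4.08%, and 68 lower, 2.07%). All 4 genes were among them, 3 higher and 1 lower. Since the genes had been chosen by this contrast, nothing is read from that count. With the 3 averaged samples of the same numbers as a block, 336 probes passed, or 10.2%, and the 4 genes were among these too. As deposited, 3 of the 4 genes had all aap6 arrays above all WT arrays, as did 20.8% of all probes.

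Over the 12 arrays, the profiles of the 3 higher genes ran together, as the shared step between the genotypes requires. Pearson's r was 0.97 between AT5G39980 and AT3G18870, 0.84 between AT5G39980 and AT1G08845 and 0.84 between AT3G18870 and AT1G08845, and the chaperone AT5G55220 had r of -0.93, -0.93 and -0.83 with the PPR, mTERF and ribosomal genes. With each genotype's mean subtracted, only the PPR and mTERF genes kept an r above 0.5, at 0.62, and the other r lay between -0.30 and 0.25. That value came from the WT arrays, where r was 0.92 over 6 arrays, against 0.11 over the 6 aap6 arrays. In WT both genes were dimmest in arrays 1 and 2 and brightest in array 5. These r are descriptions over arrays that share samples in pairs and one normalization.

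The 578 other probes with a single gene name and a level above the floor on at least 6 arrays were ranked by their r with each gene over the 12 arrays. Most like AT5G39980 were AT4G18180 (r = 0.98) and AT5G11550 (r = 0.98), both themselves higher in aap6, by 3.46 each on the log2 scale. With the genotype means subtracted their r was 0.34 each, so the likeness was mainly the step between the genotypes. Most like AT3G18870 were AT5G39980 itself and AT5G19750 (r = 0.96, and 0.57 within genotypes). For AT1G08845 the highest r were lower, 0.88 with AT5G40470 and 0.86 with AT4G19900, and 0.59 and 0.35 within genotypes. For AT5G55220 they were 0.95 with AT1G72640 and 0.94 with AT4G15840. AT1G72640 kept an r of 0.82 within genotypes, with a log2 change of -0.49 ± 0.14 (SE). It was picked as the highest r of 578 probes. AT5G55220 also sat at the floor in 4 of the 6 aap6 arrays, so within aap6 its profile varied only through arrays 1 and 3.

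The gene table used for the search holds symbols and synonyms but no protein names, and 599 of the 692 single-gene probes carried a locus number as their name. Genes of these families known only by a locus number were therefore missed, and the genes below are those found by a name, not the families as measured on the array. Words in the names found mTERF9 (AT5G55580) and 3 chaperone entries. The words for ribosomal proteins and for other gene expression found 0 probes, so AT1G08845 had no ribosomal gene found by name to set beside it. The words for PPR genes found LAS alone, a developmental regulator that matched only through letters inside "suppressor". A further 6 genes were added by their symbols after the annotation had been read. Without LAS and the copper chaperone CCS this left 9 genes, of which 0 passed in limma in either direction and 1 had an unadjusted p under 0.05, beside 202 and 825 of all 3287 probes. Their median log2 change was -0.25, against -0.057 over all probes. Some of them were dim, such as ATAB2 and Cpn60beta4, at most 0.0999 and 0.152 in aap6 as deposited. There the scaling and the floor weigh on the change, so this median is not free of them. The scaling weighs on brighter genes too. As deposited, PAC and OSB1 had ranges higher at both ends in aap6, although their log2 changes were negative, while mTERF9 was lower at both ends.

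mTERF9 was the mTERF gene found by name besides AT3G18870. Its deposited intensity was 1.004 to 1.47 in aap6 and 1.37 to 2.46 in WT, with overlap. It did not pass, with a log2 change of -0.66 ± 0.22 (SE) and a limma adjusted p of 0.117, though with arrays centred on the median of all their values it was -1.23 and did (limma adjusted p = 0.0135). It also passed with arrays centred on the median of values above the floor, at -0.91 (limma adjusted p = 0.0476).

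Of PPR genes known by their symbols, 3 had a probe of their own, and none of these passed. OTP70, which acts in plastid intron splicing, had a log2 change of 0.17 ± 0.17 (SE). The editing factors OTP85 and CRR21 had log2 changes of 0.35 ± 0.20 and -0.25 ± 0.26 (SE), and the limma adjusted p of the 3 genes were 0.595, 0.350 and 0.611. Among genes of other roles, ATAB2, a factor for translation of photosystem messages, had a log2 change of -0.58 ± 0.27. It was dim, with deposited intensities of 0.0429 to 0.0999 in aap6 and 0 to 0.116 in WT. PAC, needed for plastid development, had -0.41 ± 0.32 and the mitochondrial DNA-binding OSB1 -0.038 ± 0.21, with limma adjusted p of 0.233, 0.496 and 0.936 for the 3 genes. Deposited intensities of PAC were 0.166 to 0.343 in aap6 and 0.118 to 0.284 in WT. Those of OSB1 were 0.192 to 0.379 in aap6 and 0.148 to 0.214 in WT. The signs of the log2 changes of PAC and OSB1 thus rest on the normalization.

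Of the chaperones, the plastid chaperonin subunits Cpn60beta3 and Cpn60beta4 had log2 changes of -0.38 ± 0.18 and -0.21 ± 0.25 (SE), with limma adjusted p of 0.231 and 0.666. CCS, which delivers copper to superoxide dismutase and is no folding chaperone, had -0.57 ± 0.16 (limma adjusted p = 0.0890). Like AT5G55220, Cpn60beta4 and CCS were dim. Deposited intensities of Cpn60beta4 were 0.0860 to 0.152 in aap6 and 0 to 0.111 in WT. Those of CCS were 0.0443 to 0.0948 in aap6 and 0.0211 to 0.0701 in WT. Both ends of each range were thus higher in aap6, opposite to the sign of the log2 changes after quantile normalization. The aap6 level of CCS, -4.25 on the log2 scale, lay close to the floor.

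**Figure D4:**
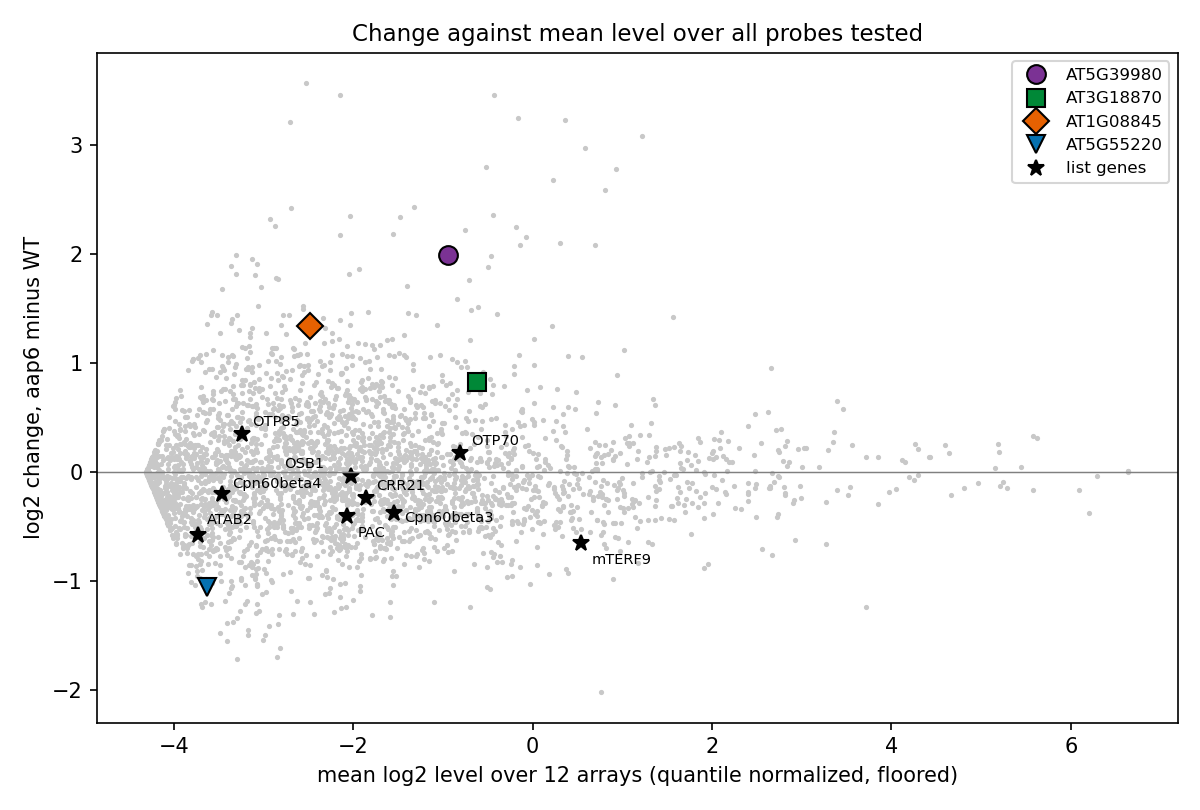
Log2 change, aap6 minus WT, against the mean log2 level over 12 arrays for the 3287 probes tested (grey), after quantile normalization and flooring. The 4 genes are coloured symbols and the 9 genes of organelle gene expression or folding found by name are stars. The stars lie between -0.66 and 0.35, and AT5G55220 lies near the edge that the floor sets on the left.

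By gene order in the TAIR10.1 gene table, AT5G39980 and AT5G55220 lie on chromosome 5, which also carries AAP6, at 1070 and 606 protein-coding genes from it. AT3G18870 lies on chromosome 3 and AT1G08845 on chromosome 1.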

How the data were processed

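The deposited series table holds 1 intensity per probe and array; the sources used here name neither platform, dye nor scaling, so its scale and centring remain unknown. Of all values, 10.5% were exactly 0. Genes came from the platform annotation, brought up to date with the TAIR10.1 RefSeq table by gene ID (690 of 692 matched). Of the other probes, 870 listed several genes and 1877 were unlisted.

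Intensities were quantile normalized, floored at 0.0505 and log2 transformed, and array pairs averaged. The difference aap6 minus WT was fitted for each probe in limma 3.58.1 (R 4.3.3), with Benjamini-Hochberg adjustment over 3287 probes, leaving out 152 at the floor on all arrays. The fit was tested on simulated data. The genes, lists and settings were chosen with earlier results of these data known; named genes were the 4 members, up to 4 genes per list by absolute change, and the 2 most alike in profile per member. The 6 genes added by symbol fall outside that rule and are all given. Same-numbered averaged samples deviated together (r over probes 0.403 to 0.475). The main fit left this pairing out, so its SEs and adjusted p are unpaired. Equal numbers were entered as a block only in alternative fits, and the pairing comes from the data, not the labels. Alternatives were other scalings, floors, a filter on dim probes, 12 separate arrays, blocks, a variance trend and left-out arrays. No sequences were used here.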

Additional observations from a re-analysis of the deposited data

Results flagged for a closer look

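In aap6 array 2 the log2 level of AT5G39980 was -0.28 (0.874 as deposited), set apart from the other 5 aap6 arrays by more than a Dixon test allows, while still far above the highest WT array. Chance flags about 1 in 20 such groups, and 8 groups were looked at.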

How the results depend on the processing

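Centring on the median of all values, leaving out aap6 array 2 without normalization and the likeness values were chosen after seeing the data, and the cause of the shifts was not tested beyond what a setting's construction shows. The count of 202 probes was 922 without normalization (905 higher, 17 lower), 468 with arrays centred on values above the floor (355 and 113) and 641 centred on all values (197 and 444). A floor at the 2nd percentile above 0 gave 106 (77 and 29). It was 778 with 12 arrays as samples (371 and 407), 336 with the pairs as a replicate block and 1019 with the replicate block over 12 arrays (473 and 546). The floor at the 25th percentile, the filter on dim probes and a variance trend gave 232, 229 and 228. Leaving out arrays or averaged samples gave 55 to 193, the lowest without aap6 arrays 3 and 4. Single arrays that moved it by over 1.5 times were WT array 1 (127) and WT array 3 (132), and of the averaged samples each did, at 68, 55 and 59 for aap6 and 114, 64 and 92 for WT.

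Without normalization the log2 changes were 2.47 for AT5G39980, 1.19 for AT3G18870, 2.10 for AT1G08845 and -0.089 for AT5G55220. The last turned to 0.036 with aap6 array 2 left out as well. Centred on values above the floor, AT1G08845 moved to 1.73 and AT5G55220 to -0.47. Centred on all values, AT5G39980 moved to 1.74, AT3G18870 to 0.47 and AT5G55220 to -0.77. AT5G55220 was -0.61 and -1.43 with the higher and the lower floor, and the filter on dim probes left it out. Leave-outs ranged over 1.86 to 2.10 for AT5G39980, 0.71 to 0.89 for AT3G18870, 1.18 to 1.53 for AT1G08845 and -1.13 to -0.95 for AT5G55220. The blocks changed no call of the 4 genes. The calls repeat the contrast that chose the genes, so their loss or survival is no measure of strength. They were lost for AT3G18870 with centring on all values, for AT5G55220 without normalization and with centring above the floor, and for AT3G18870 and AT1G08845 with the lower floor. At least 1 gene lost its call without aap6 array 2, WT arrays 1, 3, 4 or 6, or any averaged sample. Over the 18 leave-outs this befell AT3G18870 in 10, AT1G08845 in 6, AT5G55220 in 4 and AT5G39980 in 0. Of the word-matched genes 0 passed, 1 did with either centring (mTERF9) and 2 with 12 arrays (mTERF9 and CCS), a setting that counts near-identical arrays of a pair as separate samples. The r of 0.62 was 0.80 without normalization, 0.78 centred above the floor, and 0.42 to 0.77 with single arrays left out.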
